A study of Mus musculus with 3 samples.

Results

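The 7 genes described here are the mouse *Hox* genes of paralog groups 8 and 9, namely *Hoxb8*, *Hoxc8*, *Hoxd8*, *Hoxa9*, *Hoxb9*, *Hoxc9* and *Hoxd9*. They were taken by symbol from the 32285 genes of the count matrices, which hold 39 *Hox* genes. Their transcripts were counted by droplet single-cell RNA sequencing of embryonic kidneys, which reads the 3′ ends of transcripts and counts each molecule once through a unique molecular identifier (UMI). They were followed across kidney cell types in 3 libraries.

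*Hox* genes encode homeodomain transcription factors that lie in 4 chromosomal clusters and give segments along the body axis their identity, with genes at one end of a cluster acting towards the head and genes at the other end towards the tail. Groups 8 and 9 lie in the middle to posterior part of the clusters, and genes of the same group in different clusters are paralogs with related homeodomains. The metanephric kidney forms where posterior intermediate mesoderm meets the ureteric bud, and the proteins of the neighbouring group 11 act there with EYA1 and PAX2 on *Six2* and *Gdnf*. *Hox* genes are also among the best known targets of chromatin regulators in leukaemia, and *Hoxa9* is the classical example.

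Each group was 1 library made from pooled kidneys of more than 1 embryo at embryonic day E15.5. Enl-WT embryos were *Enl* +/+ *Wt1* GFPCre/+ and Enl-T1 embryos were *Enl* flox-T1/+ *Wt1* GFPCre/+. The third group, Enl-T1 TDI-11055, had the Enl-T1 genotype and came from mothers given 100 mg/kg of TDI-11055 by mouth daily from E10.5 to E14.5. ENL, encoded by *Mllt1*, reads acetylated histones, T1 is a small in-frame insertion in its YEATS domain that is found in Wilms tumour, and TDI-11055 is an inhibitor that occupies the acyl-binding pocket of that domain. The *Wt1* GFPCre allele, which all embryos carried, inactivates 1 copy of *Wt1* and drives Cre in the nephron and stromal lineages and not in ureteric epithelium. The mutation was heterozygous, and the 3′ counts do not separate the mutant from the unmodified transcript.

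The genes lie on 4 chromosomes (GRCm38, GENCODE M21). *Hoxa9* (ENSMUSG00000038227) lies on the minus strand of chromosome 6, from 52223100 to 52231089. *Hoxb9* (ENSMUSG00000020875, 96271457 to 96276595) and *Hoxb8* (ENSMUSG00000056648, 96281905 to 96285315) lie on the plus strand of chromosome 11 with 5309 bases between them. *Hoxc9* (ENSMUSG00000036139, 102976439 to 102985099) and *Hoxc8* (ENSMUSG00000001657, 102990607 to 102994111) lie on the plus strand of chromosome 15, 5507 bases apart. *Hoxd9* (ENSMUSG00000043342, 74697727 to 74700208) and *Hoxd8* (ENSMUSG00000027102, 74704615 to 74707933) lie on the plus strand of chromosome 2, 4406 bases apart. Each pair of neighbours was counted separately, and no member shared exonic bases with another protein-coding gene. An annotated transcript of *Hoxc5* spans *Hoxc8* and *Hoxc9*, *Hoxd3os1* is antisense to *Hoxd8*, and *Mir196b* lies in *Hoxa9*, where it covers 85 exonic bases (1.52%).

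Of the group 8 genes, *Hoxb8* was lower and *Hoxd8* higher in the progenitors of the mutant, and the 250 bases before their start sites are shown for that contrast (RefSeq, GRCm38.p6, 5′ to 3′ on the plus strand). Capitals mark the letters TTTATG on either strand, a core that posterior HOX and CDX proteins can bind.
*Hoxb8*, chr11:96281655-96281904: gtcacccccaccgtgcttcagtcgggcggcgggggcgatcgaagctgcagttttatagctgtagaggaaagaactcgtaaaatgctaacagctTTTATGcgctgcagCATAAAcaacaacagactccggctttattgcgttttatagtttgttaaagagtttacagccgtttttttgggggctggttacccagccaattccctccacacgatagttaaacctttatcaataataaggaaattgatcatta
*Hoxd8*, chr2:74704365-74704614: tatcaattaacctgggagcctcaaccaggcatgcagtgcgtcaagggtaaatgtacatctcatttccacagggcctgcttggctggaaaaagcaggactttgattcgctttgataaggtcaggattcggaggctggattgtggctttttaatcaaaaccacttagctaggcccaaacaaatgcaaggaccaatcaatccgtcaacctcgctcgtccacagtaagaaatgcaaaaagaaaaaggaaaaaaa
Both windows were 44.4% G or C, with 12 CpG pairs before *Hoxb8* and 6 before *Hoxd8*. The letters TTTATG occurred 2 times before *Hoxb8*, 157 and 143 bases from the start and once on each strand, and not before *Hoxd8*, *Hoxd9* or *Hoxa9*. Of 32851 such windows, 10.8% held these letters. None of the 4 windows held TGACAG, a core of MEIS (15.9% of windows). A match of letters is no measure of binding, and the windows of *Hoxb9*, *Hoxc8* and *Hoxc9* were not used here.

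The libraries held 37221435 UMIs in Enl-WT, 63336586 for the mutant and 76619303 for the treated mutant, the order kept below. Barcodes with 1000 to 6000 genes and at most 10% mitochondrial UMIs were kept, which left 5233, 4144 and 2754 cells with medians of 5090, 9391 and 16931.5 UMIs. Any 2 libraries shared 5 to 8 kept barcodes. By sex-linked transcripts, 26.5%, 73.3% and 35.1% of the kept cells were female, and ribosomal protein genes took a median of 16.5%, 26.8% and 27.9% of UMIs. Cells were grouped without use of any *Hox* gene into 13 classes named from markers, with the suffix "-like" understood throughout, and these held 89.7% to 96.9% of kept cells. Levels are UMIs summed over a class scaled to a common total (CPM, counts per 1e6 UMIs). With 1 library per group no test between groups was possible, so a gene is called higher or lower at a ratio of at least 1.4 where it averaged at least 5 CPM. Ranges in parentheses are exact 95% intervals of counting error only, and no interval covers differences between embryos or libraries. Fewer cells of a type and less RNA per cell cannot be told apart in summed counts.

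In Enl-WT kidneys the 7 genes fell into distinct patterns over the nephron, the ureteric epithelium, the stroma and the endothelium. *Hoxc8*, which patterns the thoracic skeleton and motor neurons of the forelimb, and *Hoxc9*, which sets thoracic motor neuron identity, were highest in nephron progenitors and near 0 in ureteric epithelium. *Hoxb8*, *Hoxd8* and *Hoxd9*, which act in the trunk, the hindgut and the limbs, were high in ureteric epithelium and in the distal tubule. *Hoxb9*, which patterns ribs and the mammary gland, was high in both epithelial lineages. *Hoxa9*, best known for blood stem cells and leukaemia, was spread over nephron and stroma and almost missing from ureteric epithelium.

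*Hoxc8* reached 135 CPM (124 to 147) in 750 nephron progenitors of Enl-WT and 128 (106 to 153) in cortical stroma, which did not differ beyond counting error. It was lower in stroma with no narrower name (79.9), and lower again in committed nephron precursors (60.7), podocytes (58.7), renin, mesangial and pericyte cells (54.6) and medullary stroma (52.9), a run of neighbours that did not differ. The remaining 6 classes lay between 11.5 CPM in proximal tubule and 4.03 in ureteric trunk and collecting duct, again without separation of neighbours. *Hoxc9* followed nearly the same order, with 114 CPM (103 to 124) in progenitors, above the 79.7 (62.5 to 100.2) of cortical stroma, and 2.02 to 4.94 in endothelium and the 3 ureteric classes. From cortical stroma down to distal tubule (17.9) no *Hoxc9* neighbour differed from the next beyond counting error.

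*Hoxa9* was highest in distal tubule and loop of Henle (149 CPM, 135 to 164) and committed precursors (132), which did not differ from each other. Progenitors followed at 105 (95.6 to 116), and from there to stroma with no narrower name at 64.9 no neighbour differed. Endothelium (45.2) and renin cells (43.0) were lower, and ureteric tip, trunk and urothelium held 5.11 to 8.16 CPM.

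*Hoxb9* was highest in ureteric tip (449.6 CPM, 433 to 467), then in trunk (385) and then, without a difference between them, in urothelium (264) and nephron progenitors (239). Committed precursors (178) and distal tubule (167) came next, above podocytes (115) and proximal tubule (107). Endothelium (83.7) lay above the 4 stromal classes, which spanned 27.3 to 58.4 without separation of neighbours. *Hoxb8* did not differ between ureteric tip (257, 244 to 270), trunk (243), distal tubule (221) and urothelium (196) taken as neighbours. It was lower in committed precursors (134), proximal tubule (94.0) and progenitors (90.7), and lowest in cortical stroma (9.82).

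*Hoxd8* was highest in distal tubule (179 CPM, 163 to 195), ahead of trunk (132) and urothelium (121), which did not differ, and of ureteric tip (85.8). All 9 other classes lay between 8.74 and 29.1 CPM without separation of neighbours. *Hoxd9* was highest in trunk (146, 133 to 159), followed by tip (129.9) and distal tubule (125), which did not differ, and by urothelium (100.2) and medullary stroma (98.0). Medullary stroma was thus the only stromal class with a high level of *Hoxd9*, since the others held 34.9 to 46.7 CPM, and endothelium held 7.18.

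**Figure D1:**
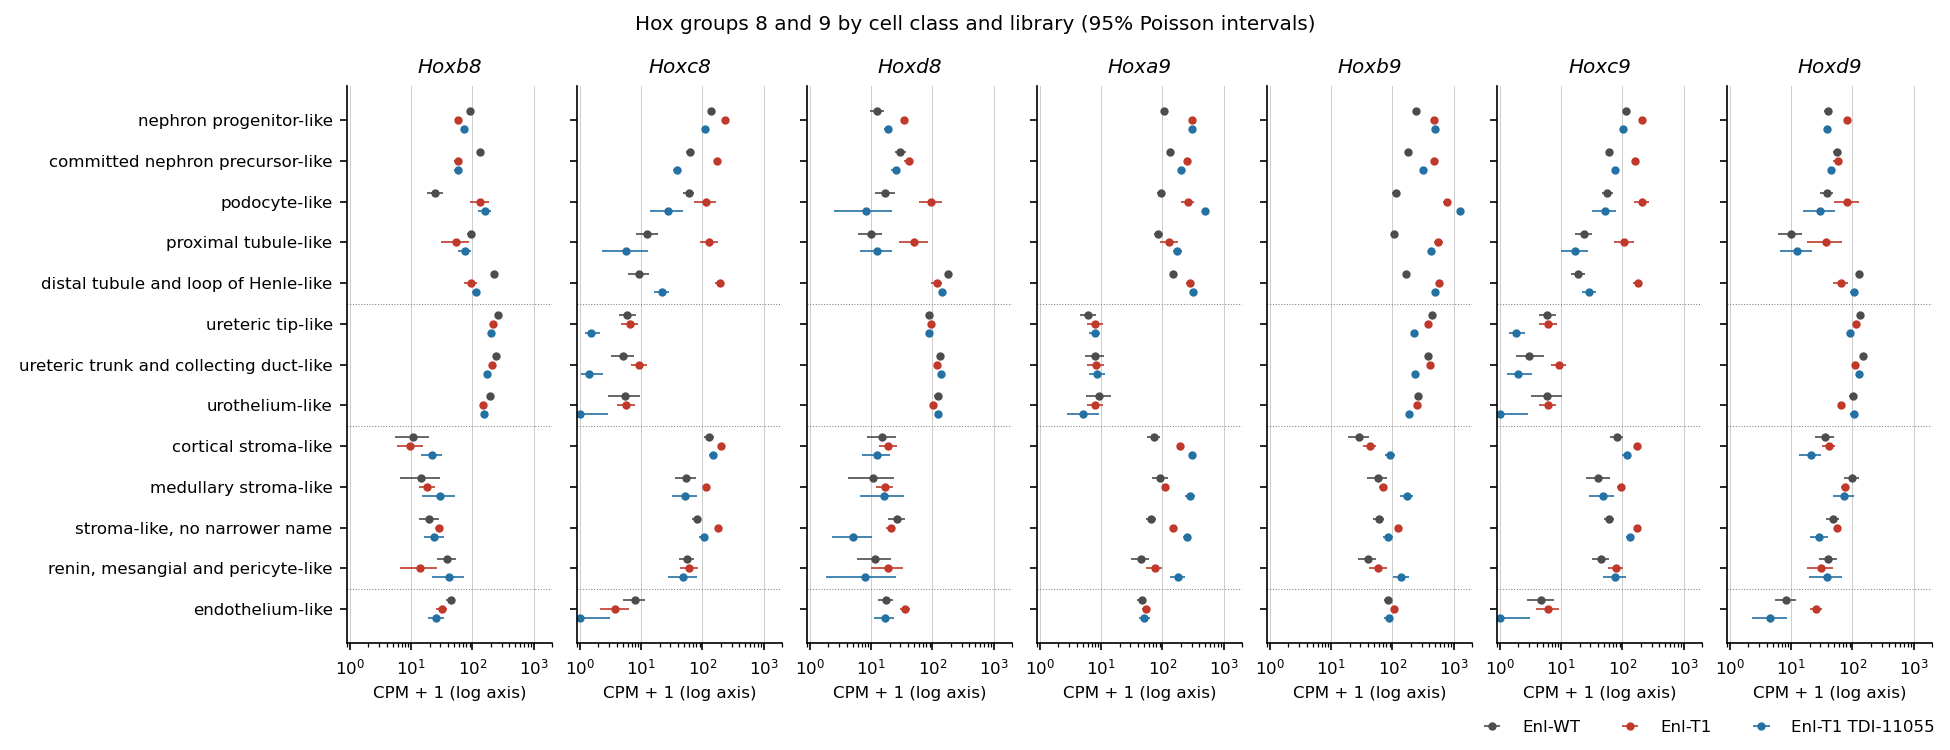
Level of each of the 7 genes (CPM, log scale) in each cell class, with 1 point per library and bars for exact 95% Poisson intervals. *Hoxc8*, *Hoxc9* and *Hoxa9* are near the bottom of the scale in ureteric tip (4.94, 4.94 and 5.11 CPM in Enl-WT) and above 100 CPM in nephron progenitors.

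The neighbours of a cluster did not share 1 pattern. Pearson correlations of log2(CPM + 1) were taken over 35 pairs of class and library with at least 50 cells, points that share libraries and depth, so they are a description. *Hoxc8* and *Hoxc9* were the most alike (0.97), *Hoxb8* and *Hoxb9* reached 0.76 and *Hoxd8* and *Hoxd9* 0.70. Across clusters, *Hoxa9* was near to *Hoxc9* (0.82), and the paralogs *Hoxb8* and *Hoxc8* ran opposite to each other (-0.57).

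Among 10983 genes, the 3 most like *Hoxc8* were *Hoxc6* (0.984), *Hoxc9* and *Hoxc10* (0.961), and those most like *Hoxc9* were *Hoxc10* (0.983), *Hoxc8* and *Hoxc6* (0.965). *Hoxa9* was nearest to *Hoxa10* (0.965), *Hoxa5* (0.953) and *Hoxa7* (0.935). *Hoxb8* was nearest to its neighbour *Hoxb7* (0.935), *Bcl11b* (0.935) and *Prr36* (0.926). No *Hox* gene was among the 3 nearest of the remaining members. These were *Mal* (0.925), *Blnk* (0.923) and *Wfdc15b* (0.920) for *Hoxd8*, *Pax2* (0.868), *Fgf9* (0.847) and *Pla2g12a* (0.847) for *Hoxb9*, and *Ccdc112* (0.816), *Ccdc136* (0.809) and *Foxp4* (0.806) for *Hoxd9*.

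Nephron progenitors, the self-renewing cells of the cap mesenchyme, were compared first because they carry the mutation. In Enl-T1, 6 of the 7 members were higher than in Enl-WT and *Hoxb8* was lower. Of 9900 genes measured there, 8.14% were at least 1.4-fold higher and 39.4% at least 1.4-fold lower. The median log2 ratio was 1.02 over the members and -0.34 over all genes.

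*Hoxa9* had 105 CPM in Enl-WT, 305 (293 to 318) in the mutant and 301 (290 to 311) in the treated library. Its level in the treated library was that of the untreated mutant, at a ratio of 0.984 (0.932 to 1.04), and the Enl-T1 to Enl-WT ratio was 2.90 (2.62 to 3.22). *Hoxb9* behaved alike, with 239, 485 (469 to 501) and 488 (474 to 501) CPM. The ratio of *Hoxb9* was 2.03 (1.89 to 2.18) for the mutation and 1.01 (0.963 to 1.05) for the treatment.

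The *Hoxc* and *Hoxd* members were higher in the mutant and lower again in the treated library. *Hoxc8* had 135, 232 (221 to 243) and 108 (101 to 114) CPM, a ratio of 1.72 (1.56 to 1.89) for the mutation and of 0.465 (0.430 to 0.501) for the treatment. *Hoxc9* had 114, 206 (196 to 217) and 103 (96.9 to 109) CPM, with ratios of 1.81 (1.63 to 2.02) and 0.50 (0.462 to 0.541). Both *Hoxc* genes ended in the treated library close to Enl-WT, at 0.797 (0.720 to 0.884) of it for *Hoxc8* and 0.907 (0.813 to 1.01) for *Hoxc9*. *Hoxd9*, which acts with *Hoxa9* in the limb and the lumbosacral region, had 38.9, 81.6 (75.2 to 88.4) and 37.2 (33.6 to 41.0) CPM. Its ratios were 2.10 (1.76 to 2.51) and 0.455 (0.400 to 0.518), and treated cells were at 0.955 (0.793 to 1.16) of Enl-WT. *Hoxd8* was low throughout, with 11.7 CPM (8.60 to 15.48), 33.8 (29.7 to 38.3) and 17.6 (15.1 to 20.3), and ratios of 2.90 (2.12 to 4.03) and 0.520 (0.427 to 0.632). It remained 1.51-fold (1.09 to 2.12) above Enl-WT under treatment.

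*Hoxb8* was the exception, with 90.7 CPM (81.7 to 100.4), 58.3 (52.9 to 64.1) and 72.0 (66.9 to 77.3). Its log2 ratio between Enl-T1 and Enl-WT was -0.64, or -0.30 relative to the median of all genes, and *Hoxb8* was no longer 1.4-fold lower when libraries were scaled by median of ratios. The treated library was 1.23-fold (1.09 to 1.39) above the untreated mutant. Treatment therefore divided the members in these cells, with 4 of 7 at least 1.4-fold lower, all in the *Hoxc* and *Hoxd* clusters, while 10.3% of all genes were that much lower. The treated and mutant comparisons share the Enl-T1 library, so a gene that is high there by chance would be high in one and low in the other.

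The pattern was the same in each of the 4 sub-clusters of progenitors. In all 4, the Enl-T1 to Enl-WT ratio was above 1 for 6 members, from 1.31 to 2.02 for *Hoxc8* and from 2.47 to 3.02 for *Hoxa9*, and below 1 for *Hoxb8* (0.469 to 0.745). In all 4, treatment gave ratios below 1 for *Hoxc8* (0.286 to 0.535), *Hoxd8* (0.269 to 0.714), *Hoxc9* (0.481 to 0.562) and *Hoxd9* (0.384 to 0.552). *Hoxa9* (0.874 to 1.11) and *Hoxb9* (0.787 to 1.13) lay on both sides of 1.

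The libraries differed in the sex of their cells, and the 6 members that were higher in Enl-T1 progenitors were higher within each sex, by amounts that differed for some. In Enl-T1 progenitors *Hoxa9* had 328 CPM in male and 303 in female cells, against 112 and 99.0 in Enl-WT and 317 and 302 in Enl-T1 TDI-11055. *Hoxc9* had 210 CPM (187 to 235) in male and 205 (193 to 217) in female cells of Enl-T1. It had 98.2 (85.1 to 113) and 145 (122 to 170) in those of Enl-WT, where the intervals did not overlap. Cells were not labelled by embryo, so differences between the sexes and between embryos cannot be told apart. The log2 ratio of *Hoxc9* between Enl-T1 and Enl-WT was 1.09 among male and 0.50 among female cells, against 0.86 in all cells. *Hoxd8* was the member whose ratio moved most, since its log2 ratio was 0.93 among female cells, where Enl-WT had 17.5 CPM (10.4 to 27.6), against 1.86 among male cells and 1.53 in all cells.

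The make-up of the class moved with the group. The 10 progenitor markers summed to 1615, 742 and 1366 CPM, with none at 0. The 12 markers of committed precursors summed to 422, 696 and 467 CPM in the same cells, with 1 of them at 0 in each library. Their part in the levels of the members was not tested. Within Enl-WT, *Hoxc8*, *Hoxc9* and *Hoxb9* were lower in committed precursors than in progenitors. The other members were higher in committed precursors, by 2.49-fold (1.74 to 3.61) for *Hoxd8* and 1.48-fold (1.29 to 1.71) for *Hoxb8*. The same ratio was 1.39 (1.12 to 1.74) for *Hoxd9* and 1.26 (1.10 to 1.44) for *Hoxa9*.

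Counts per cell were compared after thinning each cell to 2000 UMIs, which left out 10 shallower Enl-WT progenitors, 2 of Enl-T1 and 1 of Enl-T1 TDI-11055. *Hoxa9* was then found in 18.4% (15.7 to 21.4), 42.4% (38.4 to 46.5) and 36.4% (32.5 to 40.5) of progenitors. *Hoxb9* was found in 38.8% (35.3 to 42.4), 56.8% (52.7 to 60.8) and 54.6% (50.5 to 58.7). *Hoxc8* was found in 21.2%, 28.7% and 14.3%, and *Hoxc9* in 20.9%, 31.0% and 14.3%. *Hoxd9* (9.59%, 14.52% and 7.04%) and *Hoxd8* (2.57%, 6.11% and 3.78%) moved in the same sense, and *Hoxb8* (14.9%, 11.4% and 10.8%) was lower in both mutant libraries. Without thinning, at medians of 4973.5, 11176 and 19842 UMIs, the shares of *Hoxa9* were 39.5%, 91.0% and 86.6%.

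A progenitor also held more members at once in Enl-T1. At 2000 UMIs a cell had UMIs of 1.26, 1.91 and 1.41 members on average, with SDs over cells of 1.02, 1.16 and 1.05. Cells with no member made up 25.3% (22.2 to 28.6), 10.7% (8.38 to 13.5) and 20.6% (17.4 to 24.1), and cells with at least 3 made up 11.2% (9.03 to 13.7), 30.03% (26.4 to 33.9) and 13.4% (10.7 to 16.4). Unthinned, the means were 2.53, 4.74 and 4.19. The share with *Hoxc8* was somewhat higher beside *Hoxc9*, at 34.6% of Enl-T1 progenitors that held *Hoxc9* and 26.1% of the others. *Hoxb8* was in 11.3% of those with *Hoxb9* and 11.5% of the others.

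Committed nephron precursors (465, 220 and 465 cells) are the daughters that leave the progenitor pool to form the renal vesicle. Here 4 of the 7 members were at least 1.4-fold higher in Enl-T1, against 8.22% of all genes, and the median log2 ratio was 0.94 against -0.33. *Hoxc8* had 60.7 CPM (52.5 to 69.9) in Enl-WT, 176 (161 to 191) in the mutant and 37.5 (32.0 to 43.6) in the treated library. *Hoxc9* had 60.4, 158 and 73.9 CPM. Their ratios were 2.89 (2.45 to 3.43) and 2.62 (2.21 to 3.11) for the mutation, and 0.214 (0.178 to 0.255) and 0.467 (0.405 to 0.538) for the treatment.

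*Hoxb9* had 178, 481 (456 to 506) and 312 (296 to 329) CPM in committed precursors, and *Hoxa9* had 132, 255 (237 to 273) and 197 (185 to 211). Unlike in progenitors, both were lower in the treated than in the untreated mutant, at 0.649 (0.602 to 0.699) for *Hoxb9* and 0.775 (0.703 to 0.855) for *Hoxa9*, and only the former passed 1.4-fold. *Hoxd8* (29.1, 39.7 and 24.0 CPM) and *Hoxd9* (54.1, 56.1 and 44.5) were within 1.4-fold between Enl-WT and Enl-T1. *Hoxb8* had 134 (122 to 148), 56.8 (48.6 to 65.9) and 56.6 (49.8 to 64.0) CPM. Its ratio was 0.423 (0.353 to 0.506) for the mutation and 0.997 (0.818 to 1.22) for the treatment. It was the 1 member at least 1.4-fold lower in Enl-T1, beside 3935 of 10062 genes. Over the 3 sub-clusters its mutation ratio ran from 0.238 to 1.18 and was above 1 in 1 of them. Under treatment 4 of 7 members were at least 1.4-fold lower, against 29.4% of all genes. The 12 markers of the class summed to 3047, 2014 and 2116 CPM, and their part in these levels was not tested.

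Distal tubule and loop of Henle was the differentiated nephron class in which Enl-T1 kept all of its 12 markers above 0, although they summed to 1365 CPM in 69 Enl-T1 cells, 1816 in 124 Enl-T1 TDI-11055 cells and 3115 in 437 Enl-WT cells. *Hoxc8* and *Hoxc9*, which are low in this class in Enl-WT, were present in Enl-T1 near the level of progenitors. *Hoxc8* had 8.22 CPM (5.15 to 12.4), 191 (162 to 225) and 20.9 (15.3 to 27.9), a ratio of 23.3 (14.8 to 38.3) for the mutation and of 0.109 (0.0767 to 0.153) for the treatment. *Hoxc9* had 17.9 (13.2 to 23.8), 176 (147 to 208) and 27.7 (21.2 to 35.6), with ratios of 9.81 (7.01 to 13.9) and 0.158 (0.115 to 0.215). In 67 thinned Enl-T1 cells *Hoxc8* was found in 26.9% (16.8 to 39.1), against 1.87% (0.809 to 3.65) in Enl-WT and 6.67% (2.92 to 12.7) in the treated library.

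Set against progenitors of the same library, *Hoxc8* was higher in progenitors than in distal tubule by 16.4-fold (10.7 to 26.4), 1.21-fold (1.02 to 1.44) and 5.15-fold (3.83 to 7.07). For *Hoxc9* the same ratios were 6.33 (4.70 to 8.71), 1.17 (0.982 to 1.41) and 3.71 (2.87 to 4.89). The difference between the stages that Enl-WT showed was thus small in the mutant, and larger again under treatment. *Hoxd8* ran the other way, higher in distal tubule than in progenitors by 15.3-fold (11.4 to 21.0), 3.44-fold (2.67 to 4.40) and 8.22-fold (6.84 to 9.91). *Hoxd9* was 3.21-fold (2.65 to 3.90) higher in distal tubule in Enl-WT and 2.79-fold (2.36 to 3.29) in Enl-T1 TDI-11055, and in Enl-T1 the order was not resolved, at 0.792 (0.581 to 1.06).

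**Figure D2:**
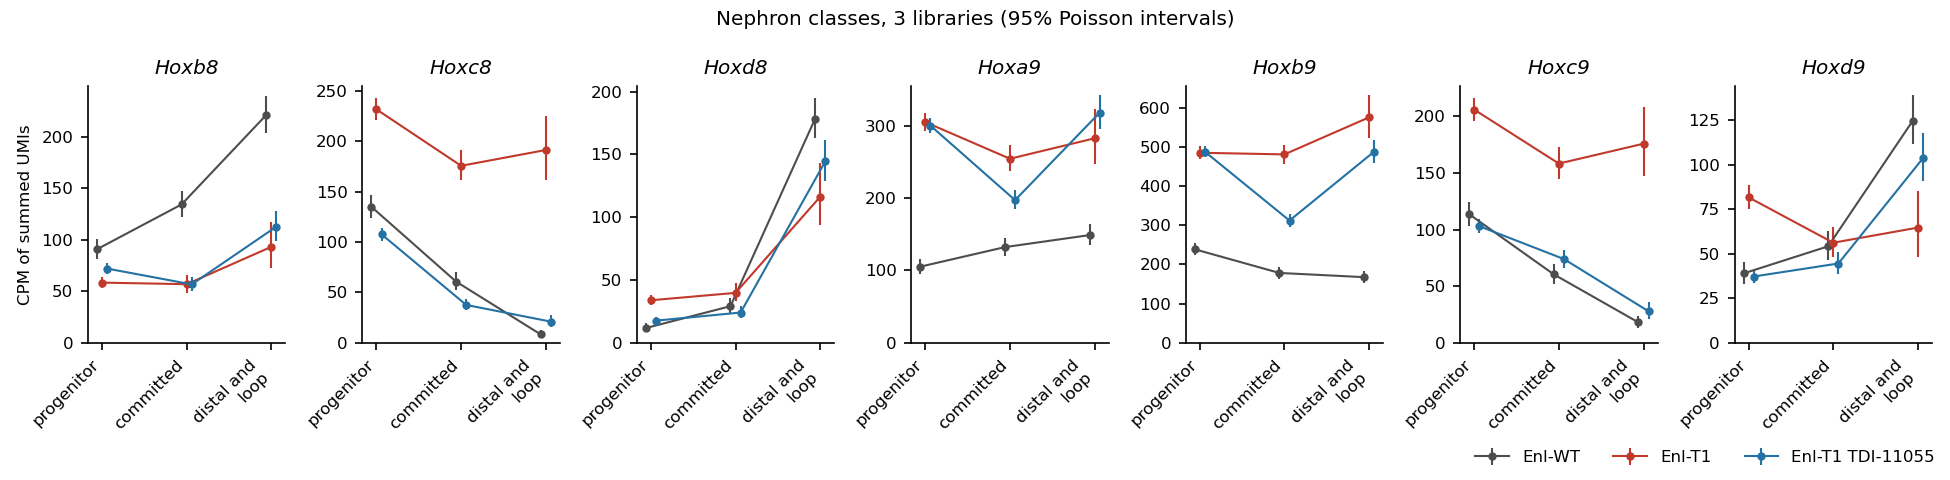
Level of the 7 genes (CPM, linear scale) in nephron progenitors, committed precursors and distal tubule of each library, with bars for exact 95% Poisson intervals. *Hoxc8* falls from 135 to 8.22 CPM along this order in Enl-WT and stays between 232 and 176 CPM in Enl-T1.

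Of the 7 members, 4 were at least 1.4-fold higher in Enl-T1 distal tubule (13.1% of all genes) and 3 were at least 1.4-fold lower (33.8% of all genes). The higher ones included *Hoxb9*, with 167, 575 (523 to 631) and 488 (459 to 518) CPM, and *Hoxa9*, with 149, 283 (247 to 323) and 319 (295 to 343). Both stayed high under treatment, at ratios to the untreated mutant of 0.848 (0.758 to 0.949) and 1.13 (0.966 to 1.32). The lower ones were *Hoxb8*, with 221, 93.1 (72.8 to 117) and 113 (99.1 to 128) CPM, *Hoxd8*, with 179, 116 (93.5 to 143) and 145 (129 to 161), and *Hoxd9*, with 125, 64.6 (48.0 to 85.2) and 104 (90.6 to 118). Only 1 of the 3 sub-clusters had enough cells to compare (332, 53 and 91). In it *Hoxd8* was at 0.870 of Enl-WT, which is not 1.4-fold lower, *Hoxb8* at 0.374 and *Hoxd9* at 0.569. In Enl-WT these 3 were at least 2.44-fold higher in distal tubule than in progenitors, and *Hoxa9* was 1.42-fold (1.23 to 1.63) higher. Treatment left 2 of 7 members at least 1.4-fold lower than in Enl-T1, *Hoxc8* and *Hoxc9*, against 19.0% of all genes, and *Hoxd9* 1.60-fold (1.18 to 2.22) higher. Markers of committed precursors summed to 1358, 1352 and 1370 CPM in the 3 libraries, and the markers of this class to 3115, 1365 and 1816 CPM. The part of either list in these levels was not tested.

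Podocytes (217, 32 and 30 cells) and proximal tubule (272, 23 and 80 cells) were scarce in the mutant and carried little of their own program there. The 10 podocyte markers summed to 42174, 1219 (with 2 at 0) and 12590 CPM, while markers of committed precursors summed to 369.9, 1995 and 1548. The 11 proximal markers summed to 6354, 711 and 1067 CPM, with 2 at 0 in Enl-T1. Levels of the members in these classes are therefore given as values, and the part of the markers in them was not tested. *Hoxb9* had 115, 771 and 1292 CPM in podocytes and 107, 565 and 432 in proximal tubule. *Hoxc8* had 58.7, 112 and 26.3 CPM in podocytes and 11.5, 128 and 4.57 in proximal tubule, so that it was again lower in the treated library, as was *Hoxc9* (55.6, 207 and 50.3 in podocytes, 22.4, 107 and 16.0 in proximal tubule). *Hoxa9* was higher in the treated library than in Enl-T1 in podocytes, with 94.8, 259 and 505 CPM. Podocytes were the nephron class in which *Hoxb8* was above its Enl-WT level in the mutant, with 23.8 (17.0 to 32.6) and 134 CPM, a ratio of 5.60 (3.38 to 9.21).

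Ureteric epithelium forms the collecting system, and this Cre is not active in it. In ureteric tip (961, 402 and 587 cells) 0 of the 7 members was at least 1.4-fold higher or lower, while 5.99% of all genes were that much higher and 34.6% that much lower. The median log2 ratio of the members was 0.04 and that of all genes -0.29, and under median-of-ratios scaling the members' median became 0.34. The count of 0 and the members' median include *Hoxc8*, *Hoxc9* and *Hoxa9*, which were not read as expressed in tip. *Hoxb8* had 257, 213 and 200.3 CPM, *Hoxd8* 85.8, 94.4 and 87.2, and *Hoxd9* 129.9, 113 and 90.4. For the mutation the ratio was 0.829 (0.767 to 0.896) for *Hoxb8* and 1.10 (0.970 to 1.25) for *Hoxd8*. In the 2 sub-clusters of tip it was 0.857 and 0.858 for *Hoxb9*, and 0.775 and 0.928 for *Hoxd9*. In trunk and collecting duct (493, 365 and 317 cells) 2 of 7 members were at least 1.4-fold higher in the mutant, against 8.16% of all genes, both at low counts. *Hoxc8* went from 14 to 38 UMIs, or 4.03 to 8.29 CPM, a ratio of 2.05 (1.09 to 4.11), and *Hoxc9* from 7 to 37 UMIs, or 2.02 to 8.07 CPM, a ratio of 4.002 (1.76 to 10.6). As set out below, counts of *Hoxc8*, *Hoxc9* and *Hoxa9* were not read as expression in tip or in trunk.

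Under treatment, *Hoxb9* was at least 1.4-fold lower in ureteric tip and trunk, and fell short of that in urothelium. It had 449.6 CPM (433 to 467), 386 and 225 in tip, a ratio of 0.584 (0.551 to 0.619) for the treatment. It was the 1 of 5 members tested that was at least 1.4-fold lower there, against 10.2% of all genes. In trunk and collecting duct it had 385, 404 and 232 CPM with a ratio of 0.573 (0.533 to 0.617), and in urothelium 264, 251 and 184 CPM with a ratio of 0.733 (0.651 to 0.824). *Hoxb8* next to it had ratios of 0.94 (0.875 to 1.01), 0.829 (0.756 to 0.909) and 1.02 (0.895 to 1.17) in the same classes. *Hoxd9* differed between these classes, since in urothelium it had 100.2, 64.1 and 104 CPM, a ratio of 0.640 (0.534 to 0.768) for the mutation and 1.63 (1.37 to 1.94) for the treatment. It was the 1 of 5 members tested that was at least 1.4-fold lower in Enl-T1 urothelium, against 37.6% of all genes.

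*Hoxc8*, *Hoxc9* and *Hoxa9* were low in ureteric epithelium. In thinned tip cells *Hoxc8* was found in 0.847% (0.367 to 1.66) and 0.748% (0.155 to 2.17) of the untreated libraries and 0 of 584 treated cells, which allows a share of up to 0.514% at 2000 UMIs per cell. Unthinned, the 587 treated tip cells held 6 UMIs of *Hoxc8*, or 0.504 CPM, in 0.681% of cells. Barcodes of which at least 50% of UMIs were haemoglobin, which should hold no *Hox* transcripts of their own, had *Hoxc8* in 0.158% (0.00399 to 0.876) of 634, 0.355% of 282 and 0.508% of 985. These barcodes were not thinned and had medians of 732, 1263.5 and 2187 UMIs. *Hoxa9* was found in 0.847%, 0.499% and 1.54% of tip cells and 0.473%, 0.355% and 1.42% of haemoglobin-rich barcodes. In tip the share intervals of *Hoxc8* overlapped those of the haemoglobin-rich barcodes in each library, and counts of these 3 genes in ureteric epithelium were not read as expression.

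In the stroma, the connective tissue that surrounds the nephrons and that also carries the mutation, *Hoxc9* was at least 1.4-fold higher in Enl-T1 in all 4 classes, by 1.78-fold in renin, mesangial and pericyte cells to 2.88-fold in stroma with no narrower name. *Hoxc8* was that much higher in 3 of them and not in renin cells (1.11, 0.698 to 1.74), and *Hoxa9* in 3 and not in medullary stroma. Cortical stroma (197, 170 and 68 cells) had 4 of 7 members at least 1.4-fold higher, against 13.9% of all genes, and a median log2 ratio of 0.61 against -0.24. *Hoxa9* had 70.9 CPM (54.8 to 90.4), 189.7 (170 to 211) and 306 (275 to 340), a ratio of 2.67 (2.04 to 3.55) for the mutation and of 1.61 (1.38 to 1.88) for the treatment. *Hoxc8* had 128, 202 (182 to 225) and 148 (127 to 172), with ratios of 1.59 (1.28 to 1.97) and 0.731 (0.605 to 0.88). *Hoxc9* had 79.7, 173 (154 to 194) and 117 (97.9 to 138), with ratios of 2.18 (1.68 to 2.85) and 0.673 (0.545 to 0.828).

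*Hoxb9* was low in this class, with 27.3 CPM (17.7 to 40.3), 41.8 (32.7 to 52.6) and 89.96 (73.5 to 109), and its ratio of 1.53 for the mutation had an interval that included 1 (0.959 to 2.52). Among male cells, of which Enl-T1 had 21, the mutant had less *Hoxb9* than Enl-WT. Under treatment 3 of 7 members were at least 1.4-fold higher (17.8% of all genes) and 3 were at least 1.4-fold lower (17.8% of all genes). The higher ones were *Hoxa9*, *Hoxb9* (2.15, 1.58 to 2.95) and *Hoxb8* (2.39, 1.201 to 4.89), all in the *Hoxa* and *Hoxb* clusters. The lower ones were *Hoxc9*, *Hoxd9* (0.497, 0.296 to 0.807) and *Hoxd8* (0.625, 0.30 to 1.23), and *Hoxd8* and *Hoxd9* were higher in the treated library among male cells. The 6 cortical markers summed to 1800, 968 and 1154 CPM, and their part was not tested.

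The other stromal classes did not all divide the members in this way. In stroma with no narrower name (305, 756 and 99 cells) *Hoxa9* had 64.9, 149 and 247 CPM, *Hoxc8* 79.9, 179.5 and 105, and *Hoxc9* 59.7, 172 and 135. There *Hoxb9* had 58.4, 121 and 83.5 CPM, a ratio of 2.08 (1.67 to 2.62) for the mutation and of 0.687 (0.553 to 0.845) for the treatment, so that over the class it was lower and not higher in the treated library. This did not hold in every sub-cluster. In the 3 of 5 with enough cells the treatment ratio ran from 0.683 to 1.59 and was above 1 in 1. In 4 of 5 the mutation ratio ran from 1.21 to 18.6. The mix differed by library, since 1 sub-cluster held 38, 246 and 10 of the cells. In this class 5 of 7 members were at least 1.4-fold higher in Enl-T1 (9.89% of all genes), including *Hoxb8*, whose interval included 1 (1.46, 0.978 to 2.24). Under treatment 4 of 7 were at least 1.4-fold lower (14.4% of all genes) and *Hoxa9* was higher (1.66, 1.45 to 1.89), as were 18.8% of all genes. In medullary stroma (145, 364 and 31 cells) *Hoxa9* had 92.1, 110.3 and 280.5 CPM, so that there its level was within 1.4-fold between Enl-WT and Enl-T1 (1.197, 0.875 to 1.67) and higher under treatment (2.54, 2.02 to 3.19). *Hoxc8* (52.9, 114 and 51.5) and *Hoxc9* (39.2, 93.7 and 46.3) were high in Enl-T1 medullary stroma alone of the 3 libraries. Over all stroma, *Hoxa9* had 63.1, 142 and 248 CPM. In Enl-T1 stroma with no narrower name, *Hoxc8* was found in 46.8% of the 171 thinned cells that held *Hoxc9* and in 20.7% of the 585 others.

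Endothelium (377, 234 and 113 cells) was the class outside these lineages with enough cells. Of the 5 members tested, 2 were at least 1.4-fold higher in Enl-T1, against 7.39% of all genes, and 2 at least 1.4-fold lower under treatment, against 22.8%. They were the same 2 genes, *Hoxd8* and *Hoxd9*. *Hoxd8* had 16.5 CPM (12.1 to 22.0), 35.3 and 15.6, with ratios of 2.14 (1.498 to 3.09) and 0.442 (0.279 to 0.681). *Hoxd9* had 7.18 CPM (4.39 to 11.1), 24.5 and 3.47, with ratios of 3.42 (2.06 to 5.92) and 0.141 (0.0503 to 0.323). *Hoxa9* (45.2, 53.1 and 49.7) and *Hoxb9* (83.7, 105 and 86.2), both higher in Enl-T1 progenitors, were within 1.4-fold here. *Hoxb8* was at 0.704 (0.531 to 0.932) of Enl-WT, which is at least 1.4-fold lower, as were 3702 of 10013 genes. The 9 general stroma markers summed to 72.9, 143 and 4.63 CPM in endothelium, with 6 of the 9 at 0 in the treated library, and so moved in the same order as both *Hoxd* genes; their part was not tested.

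**Figure D3:**
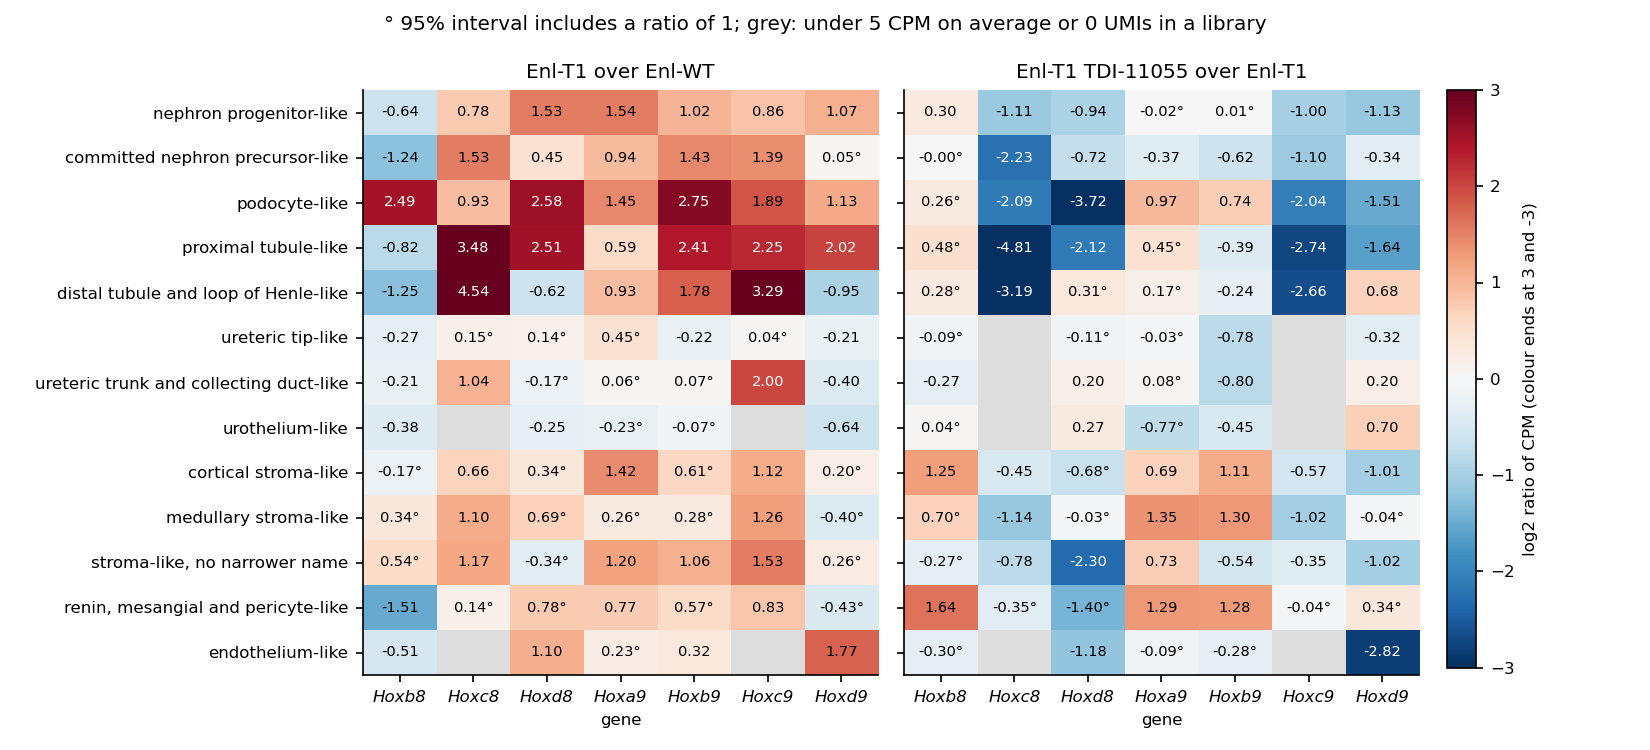
Log2 ratio of each of the 7 genes by cell class, mutant over wild type and treated over untreated mutant, as coloured fields with the value printed. The mark ° stands where the exact 95% interval of counting error includes no difference. Grey marks fields below the minimum level for calling a gene or without UMIs. In nephron progenitors *Hoxa9* lies at ratios of 2.90 and 0.984 and *Hoxc8* at 1.72 and 0.465.

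The other *Hox* genes give the setting of the members in nephron progenitors. Of the 32 others, 24 were measured, and 19 of these were at least 1.4-fold higher in Enl-T1 and 0 lower, beside the 8.14% and 39.4% of all genes given above. No p-value was computed, with 1 library a group. In groups 5 to 7, on the anterior side of the members, 5 of 8 were higher, and in groups 10 and 11, on their posterior side, 6 of 6. *Hoxc10*, the gene next to *Hoxc9*, had 176, 421 and 222 CPM, and *Hoxa10*, next to *Hoxa9*, had 174, 266 and 273. Under treatment 10 of 25 were at least 1.4-fold lower, beside 10.3% of all genes, and all 10 lay in the *Hoxc* and *Hoxd* clusters, as did the 4 members that were lower. A further 2 were higher, *Hoxb1* (7.66, 5.84 to 10.2) and *Hoxb2* (2.04, 1.88 to 2.21), again beside 10.3%. In committed precursors 18 of 24 others were higher in Enl-T1 (8.22% of all genes), and 15 of 24 were lower under treatment (29.4%).

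Of 9 kidney genes that work with or under HOX proteins, 7 were at least 1.4-fold lower in Enl-T1 progenitors, beside 39.4% of all genes, and 1 was higher, *Pax8* (1.41, 1.14 to 1.74), beside 8.14%. Those lower included *Six2*, the progenitor transcription factor, at 182, 86.3 and 183 CPM, and *Gdnf*, the signal to the ureteric bud, at 61.0, 27.4 and 60.1. Of the kidney genes, *Six2*, *Gdnf*, *Eya1* and *Osr1* are also among the progenitor markers whose sum is given above. *Pax8* is among the markers of committed precursors. Under treatment *Six2* (2.12), *Gdnf* (2.19) and *Osr1* (2.30) were at least 1.4-fold higher than in the untreated mutant, *Pax2* (0.625) and *Wt1* (0.570) were lower, and the other 4 were within 1.4-fold.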

How the data were processed

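Matrices of raw UMI counts per gene and barcode were deposited by the authors, who had aligned the reads to mm10 with Cell Ranger 6.1.2. The deposited counts were not filtered further, corrected for free RNA or cleared of doublets. Members and gene lists were chosen with earlier results of these data known. Barcodes with 1000 to 6000 genes and at most 10% mitochondrial UMIs were kept, and doublets were left in (Scrublet, scanpy 1.11.5, served as an alternative). Libraries were integrated in Seurat 5.3.0 (R 4.3.3) on 2000 variable genes, without 374 *Hox*, mitochondrial, ribosomal protein, haemoglobin, sex-linked and cell cycle genes. All cells were clustered on 30 components at resolution 0.5, and nephron and stroma again on 20 at 0.8. Classes were rebuilt from marker lists, since the files held none, so a difference from the study may come from the names. Intervals are exact Poisson, exact binomial splits for ratios, and Clopper-Pearson for shares (scipy 1.17.1), all for counting error only. A count of 0 allows up to 3 counts. Sums and ratios were tested on simulated counts. The 7 members are always named. Other *Hox* genes and kidney partners are given as counts with values where a result turns on them, and for likeness the 3 genes with the highest Pearson correlation are named. A further fixed gene list is not reported here.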

Additional observations from a re-analysis of the deposited data

Results flagged for a closer look

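In each of the following, a member was at least 1.4-fold higher in 1 class and at least 1.4-fold lower in another under the same contrast, with both counting intervals away from 1; each class had 1 library per group and the difference was not tested. *Hoxd8* in Enl-T1 over Enl-WT had a ratio of 2.90 in nephron progenitors and 0.652 in distal tubule and loop of Henle. In the 1 distal sub-cluster with enough cells to compare, its ratio was 0.870 and so not 1.4-fold lower. *Hoxd9* in the same contrast had 3.42 in endothelium and 0.518 in distal tubule and loop of Henle. *Hoxb9* in Enl-T1 TDI-11055 over Enl-T1 had 2.15 in cortical stroma and 0.573 in ureteric trunk and collecting duct. *Hoxd9* in that contrast had 1.63 in urothelium and 0.141 in endothelium.

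Outside the compared classes, *Hoxb9* was found in 4.96% (2.74 to 8.19) of the 282 haemoglobin-rich barcodes of Enl-T1, against 0.473% (0.0977 to 1.38) in those of Enl-WT and 1.52% in those of Enl-T1 TDI-11055. The medians of these barcodes were 1263.5, 732 and 2187 UMIs.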

How the results depend on the processing

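Of 688 ratios of members under alternatives, 563 stayed within the counting interval of the reported value, and of 404 that concerned a called member 400 kept their direction. The median log2 ratio of the members in nephron progenitors of Enl-T1 over Enl-WT was 1.02, and 1.27 with a total that left out haemoglobin, ribosomal protein and mitochondrial genes, 1.36 under median-of-ratios scaling and 0.61 with a mitochondrial limit of 5%, which left 120, 182 and 450 cells. In committed precursors the same median was 0.94, and 1.16 and 1.28 under these totals, 1.35 in male and 0.66 in female cells. Under treatment it was -0.62, and -0.93 as a mean over cells and -0.18 in female cells. It became -0.17 in distal tubule under treatment with the limit of 5% (0.17 as reported), 0.34 in tip by median-of-ratios (0.04), 0.64 by median-of-ratios and 0.83 in male cells in endothelium (0.32), -0.88 in male and 0.052 in female endothelium under treatment (-0.30), and 1.43 in male cortical stroma under treatment (-0.45). At a fold of 2 the counts became 2 of 4 (committed precursors, lower under treatment), 2 of 4 (cortical stroma, higher), 1 of 3 (cortical stroma, lower under treatment) and 0 of 1 (tip, lower under treatment), and with no minimum level 3 in tip and 4 in endothelium (lower under treatment). Reversed were *Hoxb9* in Enl-T1 cortical stroma (-0.11 with the limit of 5%, -0.77 in male cells, 0.61 as reported) and, in male cortical stroma under treatment, *Hoxd8* (1.52) and *Hoxd9* (1.43); cortical stroma had 79, 21 and 31 male cells. The cause was not tested. Median-of-ratios scaling raised Enl-T1 over Enl-WT by 0.34 on the log2 scale in progenitors, 0.33 in committed precursors, 0.22 in distal tubule, 0.24 in cortical stroma, 0.29 in tip and 0.32 in endothelium. In progenitors it brought *Hoxb8* to -0.30, no longer 1.4-fold lower. Of 42 shares of cells, 1 stayed within its interval without thinning or at 4000 UMIs. The male alternative was not run for distal tubule, where Enl-T1 had 1 male cell. No paired analysis was possible because each group had 1 library. Depth limits *Hoxc8*, *Hoxc9* and *Hoxa9* in ureteric epithelium and *Hoxd8* wherever it is near 10 CPM.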

Other observations

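A nephron cluster that stayed unnamed was led by *Sst*, *Abi3bp* and *Sulf1* and held 48 cells in Enl-WT, 270 in the mutant and 20 in the treated mutant. Its levels of the members are given as values, since its sizes differ between the libraries and its markers name no class. *Hoxc8* had 59.7, 286 and 85.7 CPM there, and *Hoxc9* had 59.7, 276 and 70.9. *Hoxa9* had 73.0, 338 and 411 CPM, and *Hoxb9* had 192, 674 and 594. *Hoxb8* (36.5, 77.1 and 118 CPM) was lowest in Enl-WT in this cluster, unlike in progenitors.

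A further nephron cluster led by haemoglobin genes, with 27, 71 and 38 cells, held *Hoxa9* at 120.4, 221 and 98.9 CPM and *Hoxb9* at 120.4, 231 and 155.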
